A study of Homo sapiens with 10 samples.

Results

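Genes of DNA mismatch repair and translesion synthesis were followed in a bladder cancer cell line and its cisplatin-resistant derivative. The genes were taken from a list by symbol, with no threshold on their values, and all 8 were found among the 61533 genes of the count tables. They are the mismatch recognition subunits MSH6 and MSH3, the MutL subunits PMS2 and PMS1, the Y-family polymerases POLH and REV1, and the polymerase zeta subunits REV3L and MAD2L2. The samples were RNA-seq libraries of T24, an established human bladder cancer line, and of T24R2, with 5 replicates of each line harvested on day 3. The labels give both lines RPMI with 10% serum and no drug, whereas the methods of the study describe T24R2 as kept in cisplatin, so the effects of the derived line and of drug exposure cannot be told apart. T24R2 is a single derived line, and the sources used here do not say that the replicates came from separate cultures, so p-values measure only the spread between these libraries.

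Mismatch repair removes bases that were mispaired during replication. MutS complexes bind the mismatch, a complex with MSH6 taking base mispairs and short loops and a complex with MSH3 taking larger loops, and MutL complexes, of which the PMS2-containing form carries the nicking activity, start excision and resynthesis. Translesion polymerases copy DNA past lesions that stall the replicative polymerases, among them the intrastrand crosslinks left by cisplatin. Polymerase eta (POLH) inserts bases opposite these crosslinks, and REV1 is the scaffold that recruits other translesion polymerases. Polymerase zeta, whose subunits include the catalytic REV3L and the adaptor MAD2L2 (also called REV7), extends from the inserted base.

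Of the 8 genes, 1 was called higher in T24R2 (REV1), 1 was called lower (MAD2L2) and 6 were not called, with a call set at an adjusted p below 0.05 and a log2 change larger than 0.5 in either direction in edgeR's quasi-likelihood test. For comparison, 24.9% of the 16181 genes tested were called higher and 26.5% lower. Without a minimum fold change, 6 of the 8 passed the adjusted p, 5 of them higher, against 75.5% of all tested genes. In 3 of the 8 (MSH6, REV1 and MAD2L2) the 5 libraries of T24R2 did not overlap those of T24, against 61.2% of all genes. The median log2 fold change of the 8 was 0.26, and that of all tested genes was 0.01. The called rise of REV1 was lost when reads expected from the overlapping gene EIF5B, had strands not been separated, were taken off (described below). MAD2L2 remained lower but short of a call with scaling by library size alone or by the upper quartile. In bulk libraries, fewer cells expressing a gene and less of its RNA per cell cannot be told apart.

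**Figure D1:**
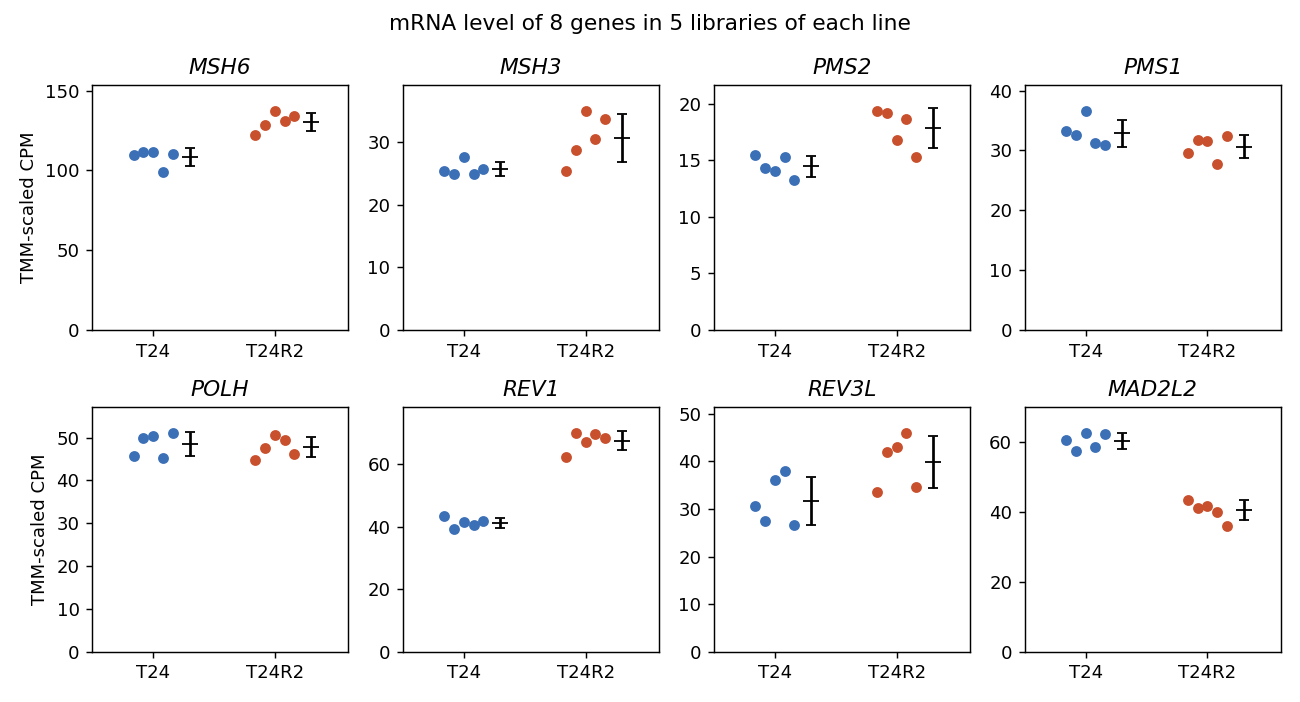
Level of each of the 8 genes in CPM (counts scaled to the TMM-adjusted library size) on the vertical axis, starting at 0, for T24 (blue) and T24R2 (red). Each point is 1 library, in the order of the replicate numbers, and the black mark is the mean with its SD over 5 libraries. The lines separate for MSH6, REV1 and MAD2L2 and overlap for the other 5 genes.

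Total counts were 9257843 to 10840954 per library, so that library size limited precision about equally in all 10. Over all tested genes, the median log2 change lay at 0.01 after TMM scaling and moved by 0.16 when libraries were scaled by their size alone, which turned 4027 higher and 4282 lower calls (48.5% higher) into 5206 and 3431 (60.3% higher). The label was checked against marker genes fixed by list. Of 12 urothelial markers, 9 exceeded 3 counts in some library, with a summed level of 4613 to 5228 CPM in T24 and 3182 to 3359 CPM in T24R2, almost all of it from keratins. UPK1B, UPK3A and KRT20 were at or under 3 counts in all libraries, KRT19 had 2348 to 2676 counts in T24 and at most 3 in T24R2, and GATA3 had 175 to 241 counts in T24 and at most 5 in T24R2. Markers of leukocytes (at most 2.99 CPM in sum over 5 genes) and of muscle (at most 5.71 CPM over 3 genes) were low in both lines. The 3 endothelial markers summed to 212 to 259 CPM in T24 and 1.70 to 2.59 CPM in T24R2. In T24 nearly all of this sum came from CDH5, which had 2037 to 2599 counts there and 1 to 9 in T24R2. The part of these line differences in the results was not tested.

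The promoters of the 8 genes (RefSeq, GRCh38.p14, from 250 bases before to 50 bases after each annotated start) were GC-rich, at 60.7% to 80.7% against a median of 58.7% over 35116 promoters. The GC box letters GGGCGG were present in at least 1 promoter of all 8 genes and in 45.0% of all promoters, with both strands searched. The CCAAT letters were present in 4 of the 8 (MAD2L2, MSH6, PMS1 and PMS2) and in 34.6% of all. The letters TTCCCGC or TTGGCGC, forms of the site of the E2F factors that act on genes of DNA replication, were present in 5 of the 8 (MSH3, MSH6, PMS1, REV3L and MAD2L2) and in 9.23% of all promoters. Genes with several annotated starts had more than 1 promoter searched, and a match in any of them counted for the gene. The shares of all promoters count single promoters, so they are not a like measure for the counts of genes. These matches are letters in a window and not measured binding. The windows of 4 of these genes are shown, since MAD2L2 fell whereas MSH3, PMS1 and REV3L were not called, and each runs 5′ to 3′ on the strand of the gene with the E2F letters in capitals. They lie at chr5:80654535-80654563 (plus strand), chr2:189784401-189784429 (plus strand), chr6:111483288-111483316 (minus strand) and chr1:11681193-11681221 (minus strand), in this order.
MSH3: cgcggtcaagtTTGGCGCgaaattgtggc
PMS1: ggctgcgagcaGCGCCAAtctcacgttgc
REV3L: tctcgctccttTTCCCGCcgagccccctc
MAD2L2: gtttgggccgtGCGGGAAtgggcgtggcc
In PMS1 and MAD2L2 the letters lie on the opposite strand, and in PMS1 they share bases with a CCAAT box. The POLH, REV1 and PMS2 promoters held neither form. In REV3L and MAD2L2 the letters lay only in the window of a downstream start (chr6:111483169-111483468 and chr1:11681099-11681398). The windows of their upstream starts (chr6:111483662-111483961 and chr1:11691510-11691809) held neither form. MSH6, also not called, held E2F letters too, and its windows are not shown.

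MSH6 (ENSG00000116062.18), the recognition subunit for base mispairs, lies on chromosome 2 from 47695530 to 47810063 on the plus strand (hg38). Its level in the T24 libraries was 110, 111, 112, 98.8 and 110 CPM, and in the T24R2 libraries 122, 128, 137, 131 and 134 CPM. Every T24R2 library lay above every T24 library. The mean was 108 ± 5.37 CPM in T24 and 131 ± 5.69 CPM in T24R2 (SD over 5 libraries each), and the log2 fold change of 0.27 (SE 0.05, adjusted p = 7.31e-06, edgeR quasi-likelihood with Benjamini-Hochberg adjustment) stayed below the minimum for a call. The exact two-sided permutation test of the CPM gave p = 0.00794, the smallest that 5 against 5 libraries allow.

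The MSH6 gene model is longer than its reference transcript (10770 against 4265 exon bases), and 33.8% of its exon bases lie opposite exons of FBXO11, an F-box protein gene on the other strand. FBXO11 had a log2 fold change of 0.35 (SE 0.05, adjusted p = 3.27e-07, edgeR). The reference transcripts of both genes share only 34 bases. With the share of reads expected from FBXO11 taken off, the log2 fold change of MSH6 was 0.25 by exon unions and 0.27 by reference transcripts, so that this gene changed little with the overlap.

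MSH3 (ENSG00000113318.11, chromosome 5, 80654652 to 80876815, plus strand), the recognition subunit for larger loops, had 25.4, 24.8, 27.7, 24.8 and 25.7 CPM in T24 and 25.4, 28.8, 34.9, 30.5 and 33.7 CPM in T24R2. Replicate 1 of T24R2 lay inside the T24 range and the other 4 lay above it. The mean was 25.7 ± 1.16 CPM in T24 and 30.7 ± 3.83 CPM in T24R2 (SD, n = 5 each), and the log2 fold change was 0.25 (SE 0.09, adjusted p = 0.00752, edgeR), not a call. The exact permutation test gave p = 0.0317. A gene on the opposite strand starts 331 bases from the start of MSH3 and shares 5.87% of its exon bases. When its expected share was taken off, the log2 fold change of MSH3 was 0.21 by exon unions (adjusted p = 0.0454, edgeR) and 0.20 by reference transcripts (adjusted p = 0.0626, edgeR).

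The ratio of MSH6 to MSH3, which compete for the same partner subunit, was formed within each library per kilobase of exon and does not depend on scaling between libraries. On the log2 scale it was 1.095, 1.15, 1.00, 0.98 and 1.08 in T24 and 1.25, 1.14, 0.96, 1.09 and 0.98 in T24R2. The lines overlapped throughout, and the difference of the means was 0.02 (SE 0.06, exact permutation p = 0.778, also 0.778 after adjustment over 4 ratios). Without replicate 1 of T24R2 it was -0.02. A difference was therefore not detectable with these libraries.

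PMS2 (ENSG00000122512.16, chromosome 7, 5970925 to 6009106, minus strand), the subunit with the endonuclease activity of MutL, had 15.5, 14.3, 14.1, 15.3 and 13.3 CPM in T24 and 19.4, 19.2, 16.8, 18.7 and 15.3 CPM in T24R2. Replicate 5 of T24R2 lay within the T24 range and the other 4 lay above it. The mean was 14.5 ± 0.90 CPM in T24 and 17.9 ± 1.74 CPM in T24R2 (SD, n = 5 each), with a log2 fold change of 0.31 (SE 0.10, adjusted p = 0.00736, edgeR; exact permutation p = 0.0159). PMS2 was the lowest of the 8, at 123 to 221 counts per library.

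PMS2 has near-identical copies, and reads that fit several places were not kept by the authors, so its level is uncertain. The tables hold 15 such copies, of which 7 were tested, 3 were called higher, 0 were called lower (edgeR) and 6 had no count in any library. Over all tested genes, 24.9% were called higher and 26.5% lower. The 3 with the highest mean count were PMS2P1, PMS2CL and PMS2P7. PMS2P1 rose from a mean of 178 to 464 counts (log2 fold change 1.16, SE 0.08, adjusted p = 1.17e-15, edgeR), PMS2CL was at 99.2 and 123 counts (0.08, adjusted p = 0.582, edgeR), and PMS2P7 was at 56.8 and 81.2 counts (0.29, adjusted p = 0.0909, edgeR). How reads were divided between PMS2 and these copies was not tested. AIMP2, a scaffold of the tRNA synthetase complex that starts 149 bases away on the other strand, had a log2 fold change of 0.26 (adjusted p = 0.00945, edgeR) and shares no exon base with PMS2.

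PMS1 (ENSG00000064933.19, chromosome 2, 189784085 to 189877629, plus strand), a MutL subunit with a lesser known role in repair, did not pass the test. Its level was 33.3, 32.5, 36.6, 31.3 and 30.9 CPM in T24 and 29.6, 31.8, 31.6, 27.8 and 32.4 CPM in T24R2, so the lines overlapped. The log2 fold change was -0.10 (SE 0.08, adjusted p = 0.222, edgeR; exact permutation p = 0.135), with a 95% interval from -0.25 to 0.05, and it became 0.06 when libraries were scaled by size alone. ORMDL1, a regulator of sphingolipid synthesis whose start lies 279 bases away on the other strand, rose from 43.6 to 77.3 CPM (log2 fold change 0.83, adjusted p = 2.79e-15, edgeR). It shares 96 exon bases with PMS1. With the share of reads expected from ORMDL1 taken off by exon unions, the log2 fold change of PMS1 was -0.15 (adjusted p = 0.0891, edgeR).

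The log2 ratio of PMS2 to PMS1 per kilobase of exon was -1.30, -1.38, -1.57, -1.23 and -1.41 in T24 and -0.81, -0.93, -1.10, -0.76 and -1.27 in T24R2. Replicate 5 of T24R2 lay inside the T24 range and the other 4 lay above it. The mean was higher in T24R2 by 0.40 (SE 0.11, exact permutation p = 0.0159, adjusted over 4 ratios p = 0.0212). Per kilobase of exon in the gene model, the level of PMS2 was 0.385 of that of PMS1 in T24 and 0.509 in T24R2. Per kilobase of reference transcript it was 0.273 and 0.360, so the size depends on the gene model. The uncertainty of the PMS2 level from its near-identical copies applies to this ratio as well.

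POLH (ENSG00000170734.12, chromosome 6, 43576185 to 43620523, plus strand), the polymerase that copies across cisplatin crosslinks, was at 45.8, 50.0, 50.4, 45.3 and 51.1 CPM in T24 and 44.9, 47.7, 50.7, 49.4 and 46.2 CPM in T24R2. The lines overlapped almost fully. The mean was 48.5 ± 2.75 CPM and 47.8 ± 2.34 CPM (SD, n = 5 each), and the log2 fold change of -0.02 had a 95% interval from -0.15 to 0.10 (adjusted p = 0.768, edgeR; exact permutation p = 0.659). With scaling by library size alone it was 0.14 (adjusted p = 0.0417, edgeR). XPO5, the exporter of microRNA precursors that starts 147 bases away on the other strand, rose from 58.7 to 104 CPM (log2 fold change 0.83, adjusted p = 2.55e-17, edgeR). GTPBP2, a ribosome rescue factor that shares 261 exon bases at the other end of POLH, had a log2 fold change of -0.24 (adjusted p = 0.000235, edgeR).

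REV1 (ENSG00000135945.10, chromosome 2, 99400475 to 99490035, minus strand) had 43.4, 39.3, 41.4, 40.4 and 41.8 CPM in T24 and 62.5, 70.0, 67.0, 69.6 and 68.4 CPM in T24R2. All T24R2 libraries lay above all T24 libraries. As deposited, the counts gave a mean of 41.3 ± 1.51 CPM in T24 and 67.5 ± 3.05 CPM in T24R2 (SD over 5 libraries each), with a log2 fold change of 0.71 (SE 0.06, adjusted p = 1.52e-13, edgeR; exact permutation p = 0.00794).

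The 3′ end of REV1 runs into the 3′ end of EIF5B, a translation initiation factor gene on the other strand. Both genes have exons over all 852 bases of chr2:99400475-99401326, which are 10.97% of the exon bases of REV1. In reference transcripts the shared stretch is 850 bases, 18.0% of the REV1 transcript and 14.8% of the EIF5B transcript. EIF5B was the more abundant, with 1220 to 1334 counts in T24 and 3511 to 3835 in T24R2, and rose by 1.30 on the log2 scale (SE 0.05, adjusted p = 2.84e-25, edgeR).

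How far the deposited counts separate strands is not known, although they were made with a stranded setting. The 97 genes lying at least 95% inside the exons of a gene on the other strand with a mean of at least 1000 counts had a median of 2.24 counts per base for each count per base of that gene (quartiles 0.888 and 3.11). If strands were not separated, reads of EIF5B over the shared bases would also be counted for REV1, and the values that follow rest on that assumption. This step was added after the values had been seen. With even coverage assumed, taking off the share expected from reference transcripts removed 48.1% of REV1 counts in T24 and 73.5% in T24R2.

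After this removal REV1 had 236, 199, 172, 193 and 195 counts in T24 and 166, 254, 162, 219 and 169 counts in T24R2. The lines overlapped, and the log2 fold change was -0.26 (adjusted p = 0.0212, edgeR), opposite in sign to the deposited counts. By exon unions, 35.5% and 53.8% were removed and the log2 fold change was 0.23 (adjusted p = 0.0116, edgeR). Neither value was a call. Under this assumption the direction of the REV1 change depended on the transcript lengths used.

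**Figure D2:**
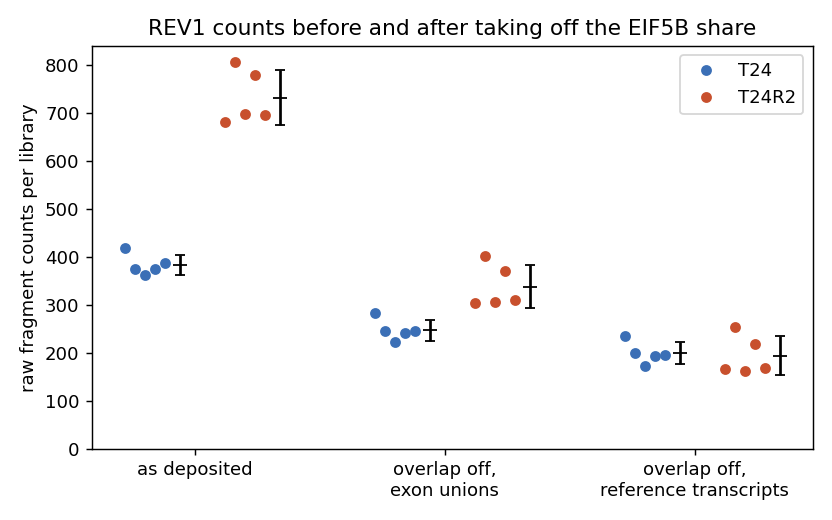
Raw fragment counts of REV1 in each library (vertical axis, from 0) as deposited and after the share expected from EIF5B was taken off by exon unions or by reference transcripts. Blue points are T24 and red points T24R2 libraries, with the mean and SD of 5. The lines are apart as deposited, with means of 383 and 733 counts, and overlap by reference transcripts, with means of 199 and 194.

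REV1 also lay in a region of chromosome 2 where most genes were higher in T24R2. The 20 nearest tested genes had a median log2 fold change of 1.25 (quartiles 0.67 and 1.79), and REV1 lay above 6 of the 20. With 5 or 25 genes on each side the median was 1.43 or 1.26. For the other 7 genes the medians of 20 neighbours ran from -0.22 (PMS2) to 0.44 (REV3L). MAD2L2 lay at -0.57 beside a median of -0.01 and above 6 of its 20 neighbours, and with 5 genes on each side its neighbours had a median of -0.41. MSH6 and its neighbours were close, at 0.27 and 0.18, and PMS2 lay above 17 of its 20 neighbours. Copy number was not measured in these files.

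**Figure D3:**
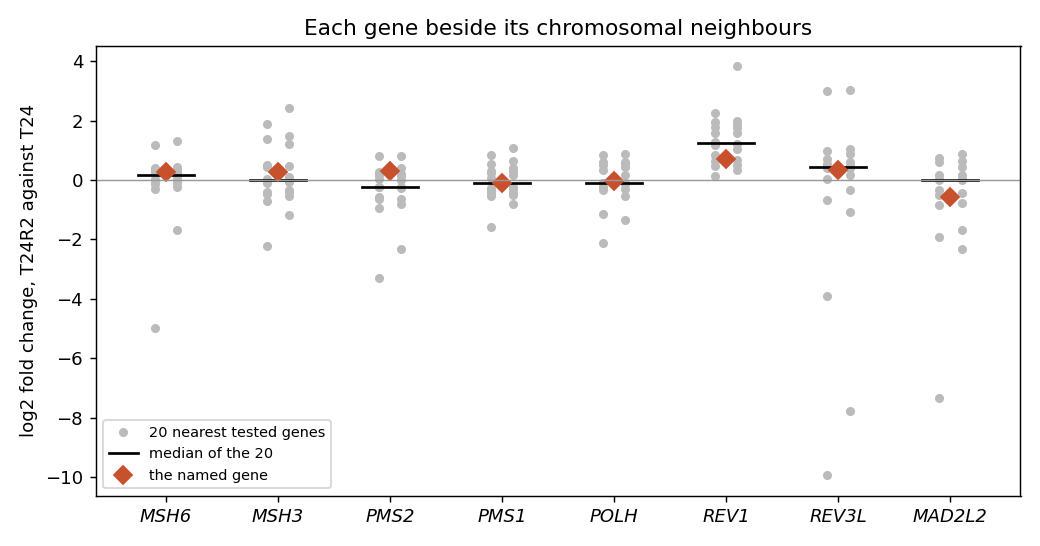
Log2 fold change of T24R2 against T24 (vertical axis) for each of the 8 genes (red diamond), its 20 nearest tested genes on the same chromosome (grey points) and their median (black line). The neighbours of REV1 have a median of 1.25, and the other medians lie between -0.22 and 0.44.

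The log2 ratio of POLH to REV1 was -0.03, 0.24, 0.18, 0.06 and 0.18 in T24 and -0.58, -0.66, -0.51, -0.60 and -0.67 in T24R2. The lines did not overlap and differed by -0.73 (SE 0.06, exact permutation p = 0.00794, adjusted over 4 ratios p = 0.01588). This ratio carries the same overlap as REV1. It was -0.23 (exact permutation p = 0.0397) after removal by exon unions and 0.26 (exact permutation p = 0.0952) by reference transcripts.

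REV3L (ENSG00000009413.16, chromosome 6, 111299028 to 111483715, minus strand), the catalytic subunit of polymerase zeta, had 30.5, 27.5, 36.0, 38.0 and 26.6 CPM in T24 and 33.6, 42.0, 43.1, 46.0 and 34.6 CPM in T24R2. The highest T24 libraries (replicates 3 and 4) exceeded the lowest T24R2 libraries (replicates 1 and 5), so the lines overlapped. The mean was 31.7 ± 5.09 CPM and 39.8 ± 5.46 CPM (SD, n = 5 each), the widest spread of the 8 genes relative to its mean in either line. The log2 fold change was 0.33 (SE 0.09, adjusted p = 0.00141, edgeR) and the exact permutation test gave p = 0.0556. Scaling by library size alone placed it at 0.50 (adjusted p = 1.15e-05, edgeR), just under the minimum.

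On the other strand, the antisense gene TRAF3IP2-AS1 shares 117 exon bases with REV3L and starts 219 bases from it, and ENSG00000272356 shares 576. TRAF3IP2-AS1 rose from 1.99 to 4.10 CPM (log2 fold change 1.04, adjusted p = 0.000353, edgeR) and ENSG00000272356 was at 4.73 and 4.83 CPM (adjusted p = 0.885, edgeR). Taking off all counts of both left a log2 fold change of 0.31 for REV3L (adjusted p = 0.0145, edgeR).

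MAD2L2 (ENSG00000116670.15, chromosome 1, 11674480 to 11691650, minus strand), the adaptor that joins REV3L to REV1 and also serves the shieldin complex at DNA breaks, fell. Its level was 60.6, 57.4, 62.6, 58.6 and 62.2 CPM in T24 and 43.4, 41.3, 41.7, 40.1 and 35.9 CPM in T24R2. Every T24R2 library lay below every T24 library, and the T24R2 mean was 67.1% of that of T24 (60.3 ± 2.24 and 40.5 ± 2.83 CPM, SD, n = 5 each). The log2 fold change was -0.57 (SE 0.06, adjusted p = 1.81e-10, edgeR; exact permutation p = 0.00794). No exon of MAD2L2 is overlapped on the other strand. DRAXIN, an axon guidance gene that starts 60 bases away, was too low to be tested. The call depended on the scaling. The log2 fold change was -0.41 with library size alone and -0.4997 with upper-quartile scaling, both short of the minimum in size. With DESeq2 it was -0.58 and stayed a call.

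The ratio of MAD2L2 to REV3L does not depend on that scaling. On the log2 scale it was 2.89, 2.97, 2.701, 2.53 and 3.13 in T24 and 2.27, 1.88, 1.86, 1.70 and 1.95 in T24R2. All T24R2 values lay below all T24 values, and the mean was lower in T24R2 by a log2 difference of -0.91 (SE 0.14, exact permutation p = 0.00794, adjusted over 4 ratios p = 0.01588). Per kilobase of exon in the gene model, the level of MAD2L2 was 7.18 times that of REV3L in T24 and 3.82 times in T24R2. Per kilobase of reference transcript these ratios were 19.5 and 10.4, so their size depends on the gene model whereas the difference between the lines does not. Taking off the genes opposite REV3L in full left the difference at -0.90.

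**Figure D4:**
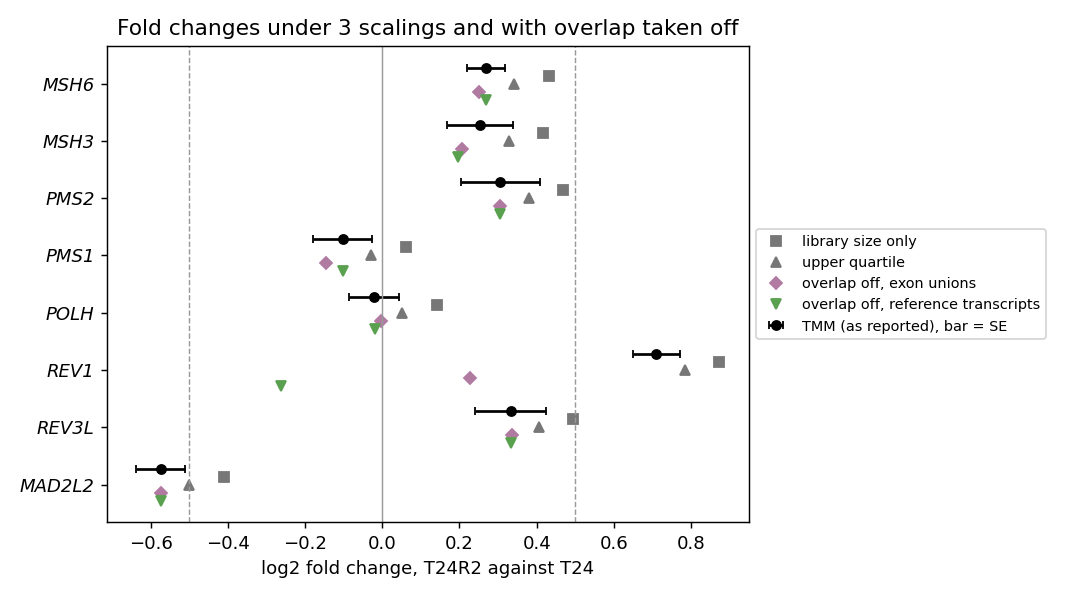
Log2 fold change of T24R2 against T24 (horizontal axis) for each gene with TMM scaling (black, bar = SE), with library size alone or upper-quartile scaling (grey) and with the opposite-strand share taken off by exon unions or reference transcripts. Dashed lines mark the minimum of 0.5 in either direction. REV1 runs from -0.26 to 0.87 and MAD2L2 from -0.57 to -0.41.

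Levels were set beside each other per kilobase of exon. In T24 the order was MAD2L2 (18.1 ± 0.67 CPM per kilobase), MSH6 (10.1 ± 0.50), PMS1 (6.04 ± 0.41), POLH (5.80 ± 0.33), REV1 (5.31 ± 0.19), MSH3 (4.82 ± 0.22), REV3L (2.55 ± 0.41) and PMS2 (2.32 ± 0.14). Libraries of PMS1 and POLH overlapped in this level, as did those of POLH and REV1, REV1 and MSH3, and REV3L and PMS2, and the other neighbours in the order were apart. In T24R2, MAD2L2 (12.2 ± 0.85) and MSH6 (12.1 ± 0.53) overlapped, REV1 followed at 8.69 ± 0.39 as deposited, and MSH3, POLH and PMS1 overlapped between 5.63 and 5.75. By the length of the reference transcript instead, MAD2L2 (38.4 CPM per kilobase) and MSH6 (30.6) stood apart in T24R2 as well. The order of these levels thus depends on the gene model.

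The wider pathway was described from 4 lists chosen by function. Of 18 partners of mismatch repair, 16 were tested, 0 were called higher and 6 lower (0% and 37.5%, against 24.9% and 26.5% of all tested genes), with a median log2 fold change of -0.14 that became 0.02 under library size alone. DESeq2 and limma-voom also called 0 higher, 2 of the 16 were higher at an unadjusted p under 0.05 (edgeR), and 1, the single-strand binding subunit RPA1 (0.18), at an adjusted p under 0.05. The sliding clamp PCNA fell from 201 to 126 CPM (log2 fold change -0.68, adjusted p = 1.36e-15, edgeR). The clamp loader subunits RFC2 (-0.94) and RFC4 (-0.75) and RPA3 (-0.77) fell, as did the polymerase delta subunits POLD4 (-1.07) and POLD3 (-0.53). The lines did not overlap in any of these 6 genes, against 61.2% of all tested genes. The 6 were picked by their calls, which favours separation, so the share of all genes is not a like measure. Other subunits of these complexes were not called. They were RFC1 (-0.23, adjusted p = 0.00031, edgeR), RFC3 (-0.08), RFC5 (0.09), RPA1 (0.18), RPA2 (0.13), POLD1 (-0.08) and POLD2 (-0.06). EXO1 (-0.20), MLH3 (0.13) and LIG1 (0.01) were not called either. Called lower were 5 with scaling by library size alone or by the upper quartile, and without T24R2 replicate 4 or 5. A mean of at least 100 counts also gave 5 lower.

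Of 16 translesion partners, 15 were tested, 3 were called higher and 3 lower (20% each, against 24.9% and 26.5% of all tested genes), with a median log2 fold change of 0.23. The split was 7 higher and 2 lower with scaling by library size alone, and 5 and 3 with upper-quartile scaling. UBE2B, an E2 enzyme that works with RAD18 to ubiquitinate PCNA, rose from 43.6 to 94.4 CPM (log2 fold change 1.11, adjusted p = 7.23e-20, edgeR). WDR48 (0.75), the partner of the deubiquitinase USP1, and the repriming polymerase PRIMPOL (0.74) also rose. HLTF, a ligase that extends the ubiquitin chain on PCNA, fell from 130 to 51.0 CPM (log2 fold change -1.35, adjusted p = 2.59e-23, edgeR), and the deubiquitinase USP7 (-0.58) and the clamp unloader ATAD5 (-0.67) fell. Another 8 passed the adjusted p without reaching the minimum fold. Higher among them were RAD18 itself (0.34), the Y-family polymerases POLK (0.34) and POLI (0.23), SHPRH (0.48), SPRTN (0.47), USP1 (0.17) and POLDIP2 (0.16). POLQ (-0.41) was lower. Exons on the other strand cover 29.8% of the exon bases of HLTF, 18.6% for PRIMPOL, 10.8% for POLK and 13.5% for SPRTN. Had strands not been separated, the main overlapping gene would supply an expected 12.6%, 25.9%, 17.2% and 15.5% of their counts, in this order. Without replicate 1 of T24R2, 5 were called higher.

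All 6 partners of MAD2L2 were tested, with 1 called higher and 2 lower (16.7% and 33.3%, against 24.9% and 26.5% of all tested genes) and a median log2 fold change of -0.39. The chromosome alignment factor CHAMP1 (log2 fold change -1.01) and the shieldin subunit SHLD2 (-0.81) fell. MAD2L1BP (0.52), an adaptor that works with TRIP13 to remodel HORMA-domain proteins such as MAD2L2, rose, and TRIP13 was at -0.22 (adjusted p = 0.00209, edgeR). The other shieldin subunits SHLD1 and SHLD3 had 11 to 35 counts and did not pass. The call of MAD2L1BP was lost without T24 replicate 3, T24 replicate 5 or T24R2 replicate 2, each leaving 0 called higher, and without T24R2 replicate 4 the list had 2 called higher.

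The 12 replication licensing and helicase genes were all tested, with 1 called higher, 2 lower (8.33% and 16.7%, against 24.9% and 26.5% of all tested genes) and a median log2 fold change of 0.11. Scaling by library size alone or by the upper quartile gave 2 higher and 1 lower. The helicase subunit MCM7 rose from 267 to 532 CPM (log2 fold change 1.00, adjusted p = 7.94e-23, edgeR). The GINS subunit GINS1 fell from 83.9 to 38.3 CPM (log2 fold change -1.13, adjusted p = 4.39e-20, edgeR) and the licensing factor CDT1 fell (-0.52). MCM2 was at -0.47 (adjusted p = 6.29e-11, edgeR), with 23.6% of its exon bases opposite other exons. Called higher were 3 without T24 replicate 2 and 2 without T24 replicate 5 or T24R2 replicate 2, and called lower was 1 without T24 replicate 2 or T24R2 replicate 5.

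**Figure D5:**
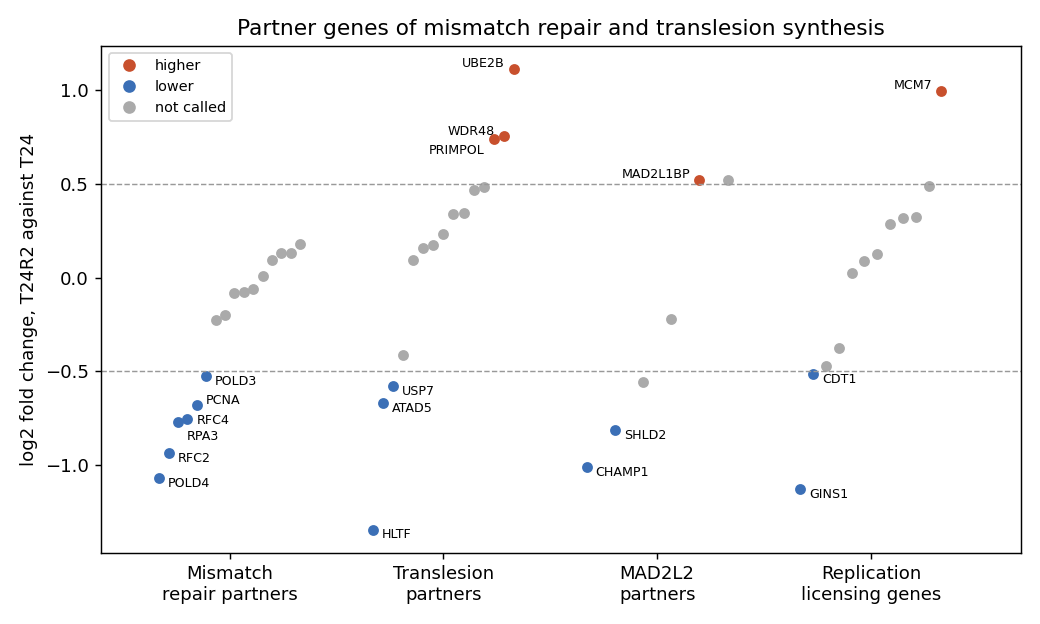
Log2 fold change of T24R2 against T24 (vertical axis) for every tested gene of the 4 partner lists, in rising order within each list. Red points were called higher, blue points lower and grey points not called, with called genes named and dashed lines at 0.5 in either direction. Mismatch repair partners had 6 lower and 0 higher calls, and translesion partners 3 of each, which became 7 higher and 2 lower with scaling by library size alone.

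Over the 10 libraries, the tested gene whose log2 CPM was most like that of REV1 was AIDA, with Pearson r = 0.995, and for MAD2L2 it was FMNL3, with r = 0.991. These values describe mostly the step between the lines, since 1912 and 1880 genes had r above 0.95 with REV1 and MAD2L2.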

How the data were processed

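The deposited files hold raw fragment counts per gene for 10 RNA-seq libraries, 5 of T24 and 5 of T24R2. Per the submitters' notes, the file headers and the methods of the study, the authors used STAR 2.7.0 for alignment to hg38, SAMtools 1.10 to discard duplicates and reads mapping to several places, and featureCounts 2.0.1 with GENCODE release 39 and strand option 1. Replicates were not pooled.

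Counts were tested in R 4.3.3 with edgeR 4.0.16 (filterByExpr, 16181 genes, TMM, quasi-likelihood test, Benjamini-Hochberg adjustment over all of them). A gene was called at an adjusted p below 0.05 and a log2 change larger than 0.5 in either direction. CPM used TMM-scaled library sizes, and single genes and ratios were compared by exact two-sided permutation tests, whose smallest p is 0.00794. Alternatives used DESeq2 1.42.0 and limma 3.58.1. The fit was also run on simulated counts with far fewer genes changed than were called here, so that run does not test the scaling between the lines. Other steps used Python 3.11.15, numpy 2.4.6, pandas 2.3.3, SciPy 1.17.1 and matplotlib 3.10.9. Reference transcripts were MANE Select of GENCODE release 44, on the same build, and 61369 of 61533 identifiers had a symbol. The biological coefficient of variation was 6.61%. Chi-square per degree of freedom in the 20 replicate pairs was 2.01 to 7.04, so no library was the same library sequenced again. Whether replicates shared a culture or an RNA sample was not tested.

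The members and lists were chosen with earlier results of these data known. Named genes are the 8 members, genes overlapping or starting within 1000 bases of a member on the other strand, the 3 PMS2 copies with the highest counts, the 4 partner genes of lowest adjusted p in each list, and the gene most correlated with each called member. All other called partners, the named uncalled partners of mismatch repair and translesion synthesis, and SHLD1, SHLD3, KRT19, GATA3 and CDH5 were named after their values were seen. Some genes named by this rule are not reported here.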

Additional observations from a re-analysis of the deposited data

Results flagged for a closer look

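MSH6 in T24 replicate 4 stood at 98.8 CPM, away from the other T24 libraries at 110 to 112 CPM, a gap of 0.850 of the range of the group. It was the only such library among 24 groups examined, where chance gives about 1.2. Without it the log2 fold change of MSH6 was 0.23 (adjusted p = 7.9e-05, edgeR), against 0.27 with it.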

How the results depend on the processing

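Calls of single members were the same under DESeq2 with and without shrinkage, limma-voom, the other count filters, removal of mitochondrial genes and each left-out library. Replicate numbers did not pair the libraries (same-number correlations from -0.02 to 0.02, 1 of 5 best with its own number), and the replicate block left REV1 at 0.71 and MAD2L2 at -0.57 and changed no member's call. With scaling by library size alone, 0 members were lower, translesion partners had 7 higher, MAD2L2 partners 2 higher and licensing genes 2 higher and 1 lower. Upper-quartile scaling gave 0 members lower, 5 translesion partners higher, and 2 licensing genes higher and 1 lower. A mean of at least 100 counts left 4991 genes called, 5 translesion partners higher, and 2 licensing genes higher and 1 lower, and no count filter gave 1 mismatch repair partner higher. With the overlap share taken off, 0 members were higher by exon unions or by reference transcripts, REV1 reversed to -0.26 and the ratio of POLH to REV1 to 0.26 by reference transcripts, as the removal was built to lower REV1. With no minimum fold, 75.5% of all tested genes passed in either direction. Higher were then 5 members, 1 mismatch repair partner, 10 translesion partners, 1 MAD2L2 partner and 5 licensing genes. Lower were 1 member, 7 mismatch repair partners, 4 translesion partners, 3 MAD2L2 partners and 4 licensing genes. At a log2 fold change over 1, 4211 genes were called, with 0 members higher and 0 lower. Of the partners, 1 of mismatch repair was then lower, 1 translesion gene higher and 1 lower, 0 MAD2L2 partners higher and 1 lower, and 0 licensing genes higher and 1 lower. Leaving out each library gave 3 to 5 translesion partners higher, 0 to 2 MAD2L2 partners higher, 1 to 3 licensing genes higher and 1 to 3 lower, and a ratio of MSH6 to MSH3 between -0.020 and 0.054. Except where named, the cause was not tested. Overlapping genes could be taken off in full only for REV3L. Depth limits PMS2 most, at 123 to 221 counts.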
